A study of Mus musculus with 8 samples.

Results

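The 46 genes described here are a panel of fibroblast and extracellular matrix genes that feeder fibroblasts express strongly. They were taken by symbol from a list of collagens, other matrix proteins, matrix enzymes, surface receptors and mesenchymal transcription factors. All 46 symbols were found once each among the 23284 genes of the authors' deposited table. RNA sequencing was done on mouse embryonic stem (ES) cells of mixed strain, in 4 groups of 2 libraries. The groups were clone 6, which carries a Ctcfl transgene, with 2 µg/ml doxycycline; clone 6 without doxycycline; clone 7, which carries no transgene, with 2 µg/ml doxycycline; and clone 7 without it. Ctcfl encodes a testis-expressed relative of the insulator protein Ctcf, and the transgene is inducible by doxycycline. Clone 6 cells are called transgenic and clone 7 cells non-transgenic. With 1 clone per line, what differs between the lines cannot be tied to the transgene.

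All cells had been kept on mouse embryonic fibroblasts and were then plated without these feeders for 48 h before RNA was taken, per the labels' protocols. Fibroblasts build the connective tissue matrix: they secrete fibrillar collagens, fibronectin and elastic fibre proteins, cross-link them outside the cell and remodel them with metalloproteases and their inhibitors. Embryonic fibroblasts are used as feeders because they supply attachment and growth factors to ES cells, and some stay attached when cultures are passaged. Several genes of the panel are not restricted to fibroblasts. ES cells and other early embryonic cells also make vimentin, fibronectin and Sparc, and Sparc and the collagen chaperone Serpinh1 are strongly expressed by parietal endoderm.

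Each group has 1 deposited value per gene, in FPKM (fragments mapped, scaled by transcript length and by library size), which combines its 2 libraries. Levels therefore carry no SD, and the depth of the libraries is unknown. FPKM is scaled by transcript length, so levels of different genes can be set side by side. Summed over all genes, FPKM came to between 717813 and 737443 in the 4 groups. A gene was called changed where the authors' table gives a test and a q-value under 0.05. The labels name biological replicates without describing the cultures behind them, so the replication behind the deposited p-values may be technical. How the authors' test modelled the spread is not known here.

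The panel was expressed in every group. Of the 46 genes, 30 reached 10 FPKM in at least 1 group, 14 peaked between 1 and 10 FPKM, and 2 stayed under 1 FPKM throughout. The summed level of the panel was 2399 FPKM in transgenic cells with doxycycline and 2293 FPKM without it, against 1791 FPKM in non-transgenic cells with doxycycline and 1776 FPKM without it. In bulk RNA, the number of fibroblasts, the RNA per fibroblast and expression by the ES cells themselves cannot be told apart. Both transgenic groups thus stood above both non-transgenic groups, and doxycycline moved the sum little in either line. The ratio of the sums, transgenic over non-transgenic, was 1.34 with doxycycline and 1.29 without it.

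Fibroblast identity was checked on 10 defining feeder markers (Col1a1, Col1a2, Col3a1, Col6a3, Postn, Lum, Thy1, Pdgfrb, Twist2 and Prrx1). Their summed level was 235 and 232 FPKM in transgenic cells with and without doxycycline, and 179 and 182 FPKM in non-transgenic cells with and without it. None of the 10 was listed at 0, and 1, the proteoglycan gene Lum, stayed under 1 FPKM. The positional Hox genes of trunk fibroblasts were near the floor: all 12 stayed under 1 FPKM in every group, Hoxd8 leading at up to 0.793 FPKM. Their sum was 2.35 and 2.78 FPKM in transgenic cells with and without doxycycline, and 2.51 and 2.94 FPKM in non-transgenic cells. Of the ES cell markers, the core factor Pou5f1 was at 1011 and 1116 FPKM in transgenic cells with and without doxycycline, and at 1108 and 1080 FPKM in non-transgenic cells.

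**Figure D1:**
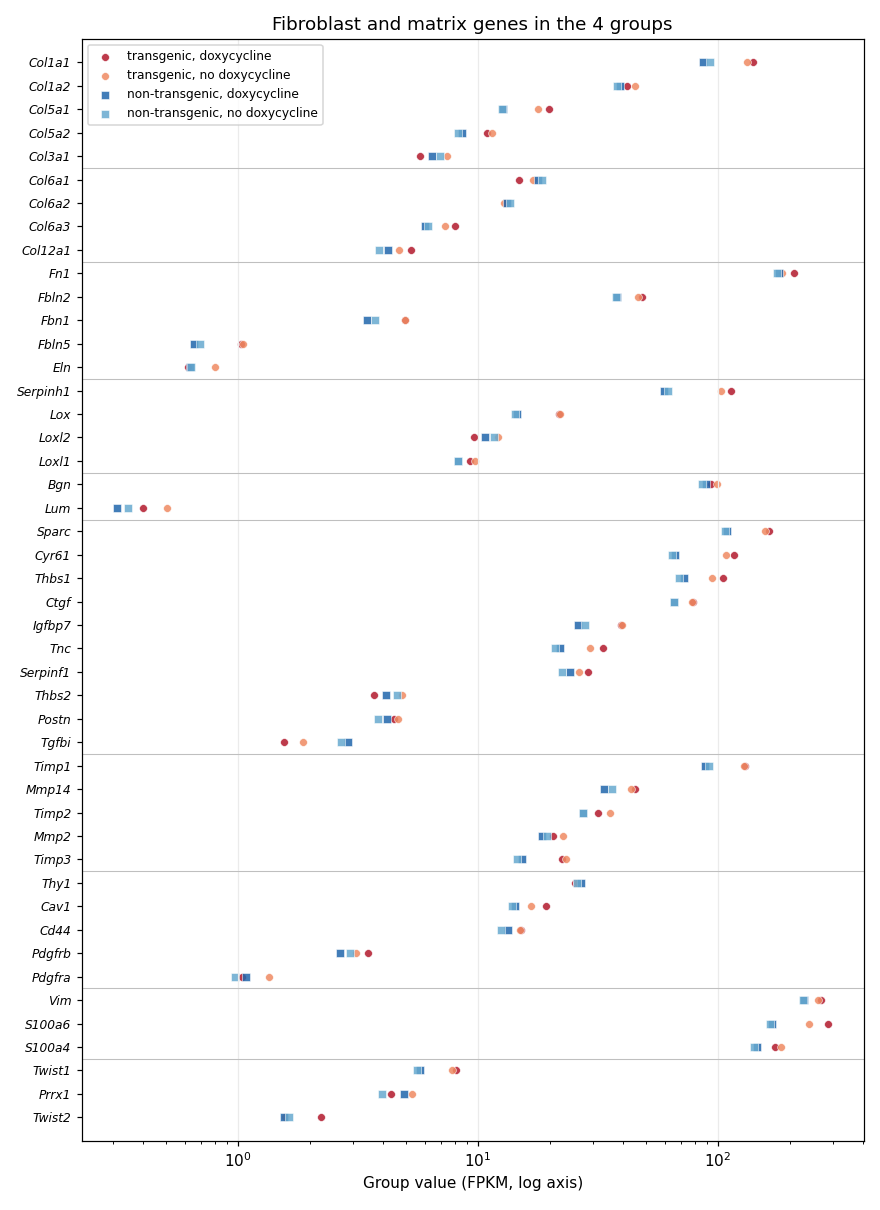
Level of each of the 46 genes (rows, grouped by role and separated by grey lines) in the 4 groups, in FPKM on a log axis; each point is the authors' value for 1 group of 2 libraries, so there are no error bars. Circles (transgenic line) lie to the right of squares (non-transgenic line) for most genes, as for Serpinh1 and Cyr61, while the 2 circles of a gene usually lie close together.

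The fibrillar collagens form the tensile fibrils of connective tissue. Col1a1, which encodes the main chain of type I collagen, was at 139.6 and 132 FPKM in transgenic cells with and without doxycycline, against 86.8 and 92.8 FPKM in non-transgenic cells. Col1a2, its partner chain, was at 41.8 and 45.1 FPKM in transgenic cells with and without doxycycline, against 38.9 and 37.8 FPKM in non-transgenic cells. Neither chain was called between the lines. The ratio of the Col1a1 to the Col1a2 level was 3.34 and 2.92 in transgenic cells with and without doxycycline, and 2.23 and 2.45 in non-transgenic cells. Type V collagen nucleates type I fibrils, and its chain Col5a1 was at 19.8 and 17.7 FPKM in transgenic cells with and without doxycycline, against 12.7 and 12.6 FPKM in non-transgenic cells. Its partner chain Col5a2 was at 10.9 and 11.4 FPKM, against 8.61 and 8.28 FPKM. Col3a1, the type III collagen of soft tissue, peaked at 7.42 FPKM.

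Type VI collagen forms beaded filaments around cells. None of its chains was called, and Col6a1 and Col6a2 were slightly lower in transgenic cells. Col6a1 was at 14.8 and 16.9 FPKM in transgenic cells with and without doxycycline, against 17.7 and 18.5 FPKM in non-transgenic cells. Col6a2 was at 13.1 and 12.8 FPKM in transgenic cells, against 13.2 and 13.6 FPKM in non-transgenic cells. The third chain, Col6a3, peaked at 7.997 FPKM and the fibril-associated Col12a1 at 5.23 FPKM, both in transgenic cells with doxycycline.

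Fibronectin (Fn1), the adhesive glycoprotein on which collagen is assembled, was at 207 and 184 FPKM in transgenic cells with and without doxycycline, against 180.2 and 175 FPKM in non-transgenic cells. The fibulin gene Fbln2 was at 48.2 and 46.2 FPKM in transgenic cells, against 37.9 and 37.7 FPKM in non-transgenic cells. Fibrillin (Fbn1), the scaffold of elastic fibres, was at 4.98 and 4.96 FPKM, against 3.43 and 3.73 FPKM. Mature elastic fibre genes were low everywhere: Fbln5 peaked at 1.05 FPKM and elastin (Eln) at 0.801 FPKM.

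Among the collagen processing genes, Serpinh1 encodes the chaperone of the endoplasmic reticulum that folding procollagen needs. It was at 113 and 103 FPKM in transgenic cells with and without doxycycline, against 59.5 and 61.6 FPKM in non-transgenic cells. Lox, the lysyl oxidase that cross-links collagen and elastin, was at 21.8 and 21.9 FPKM in transgenic cells, against 14.5 and 14.2 FPKM in non-transgenic cells. Both genes were higher in each transgenic group than in either non-transgenic group. Loxl2, a relative of Lox, was not in that order: it was at 9.61 and 12.1 FPKM in transgenic cells with and without doxycycline, against 10.7 and 11.6 FPKM in non-transgenic cells. Loxl1 peaked at 9.67 FPKM, in transgenic cells without doxycycline. Of the small leucine-rich proteoglycans, which coat collagen fibrils, Bgn (biglycan) was at 93.6 and 98.6 FPKM in transgenic cells, against 89.0 and 86.0 FPKM in non-transgenic cells. Lum (lumican) peaked at 0.506 FPKM.

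Matricellular proteins modulate how cells sense the matrix without building it. Sparc, which binds collagen, was at 164 and 157 FPKM in transgenic cells with and without doxycycline, against 109 and 107 FPKM in non-transgenic cells. Cyr61 (now Ccn1), an integrin ligand that serum and mechanical tension induce, was at 117 and 108 FPKM in transgenic cells, against 66.1 and 64.3 FPKM in non-transgenic cells. Its close relative Ctgf (now Ccn2) differed less, at 78.4 and 77.9 FPKM against 65.7 and 65.3 FPKM. The ratio of the Cyr61 to the Ctgf level was accordingly 1.49 and 1.38 in transgenic cells with and without doxycycline, and 1.01 and 0.984 in non-transgenic cells. Thbs1 (thrombospondin), an activator of latent Tgf-beta, was at 104 and 94.3 FPKM in transgenic cells, against 72.3 and 68.5 FPKM in non-transgenic cells. The anti-adhesive tenascin gene Tnc was at 33.1 and 29.4 FPKM, against 21.9 and 21.0 FPKM.

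Igfbp7, which binds insulin-like growth factors, was at 39.5 and 39.7 FPKM in transgenic cells with and without doxycycline, against 26.2 and 27.9 FPKM in non-transgenic cells. Serpinf1, an anti-angiogenic serpin, was at 28.6 and 26.3 FPKM, against 24.1 and 22.3 FPKM. Tgfbi, a Tgf-beta-induced adhesion protein, was the member with the clearest opposite order: it was at 1.55 and 1.86 FPKM in transgenic cells, against 2.87 and 2.69 FPKM in non-transgenic cells. Thbs2 peaked at 4.82 FPKM and Postn (periostin) at 4.62 FPKM.

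Matrix turnover genes pair metalloproteases with their inhibitors. Timp1 was at 129.9 and 129 FPKM in transgenic cells with and without doxycycline, against 88.6 and 92.01 FPKM in non-transgenic cells. Timp3, the inhibitor that stays bound to the matrix, was at 22.3 and 23.2 FPKM, against 15.2 and 14.6 FPKM. Timp2, which helps to activate Mmp2 at the cell surface, was at 31.7 and 35.6 FPKM, against 27.4 and 27.4 FPKM. All 3 inhibitors were higher in each transgenic group than in either non-transgenic group. The membrane-bound protease Mmp14 was at 45.2 and 43.3 FPKM in transgenic cells with and without doxycycline, against 33.6 and 36.0 FPKM in non-transgenic cells. The gelatinase Mmp2 was at 20.5 and 22.5 FPKM, against 18.5 and 19.4 FPKM.

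Of the 5 surface markers 0 were called between the lines, and 0 had an unadjusted p under 0.05. Thy1, a classical fibroblast surface antigen, was at 25.3 and 25.7 FPKM in transgenic cells with and without doxycycline, against 26.9 and 25.9 FPKM in non-transgenic cells. Cav1 (caveolin) was at 19.2 and 16.6 FPKM, against 14.2 and 13.8 FPKM. The hyaluronan receptor Cd44 was at 15.1 and 14.9 FPKM, against 13.3 and 12.5 FPKM. The platelet-derived growth factor receptors were low, Pdgfrb peaking at 3.48 FPKM and Pdgfra at 1.35 FPKM.

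The intermediate filament gene Vim and 2 small calcium-binding genes were the most abundant of the panel with Fn1. Vim was at 268 and 259.9 FPKM in transgenic cells with and without doxycycline, against 228 and 227 FPKM in non-transgenic cells. S100a6 was at 287 and 239.7 FPKM, against 167 and 164 FPKM. S100a4, also called fibroblast-specific protein, was at 173 and 183 FPKM, against 145 and 141 FPKM. The mesenchymal transcription factors were low, with maxima of 8.12 FPKM for Twist1, 5.32 FPKM for Prrx1 and 2.22 FPKM for Twist2.

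Whether doxycycline changes these genes was asked in each line. No member was called in either line. In transgenic cells the authors' deposited table called 0 of 45 tested members, against 0.108% of all 13003 tested genes (14 genes). The same Cuffdiff-type test gave 0 members in the authors' deposited table an unadjusted p under 0.05, against 1.08% of all genes. In non-transgenic cells 0 of 44 tested members were called in the authors' deposited table, against 0% of 12908 genes, and 0 had an unadjusted p under 0.05, against 0.108% of all genes. Among members, the smallest p in the authors' deposited table was 0.10485 for Col3a1 in transgenic cells and 0.29495 for Prrx1 in non-transgenic cells, and every member had a q of at least 0.999578.

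Over the 43 members with a mean of at least 1 FPKM over the 4 groups, the median doxycycline difference on the log2(FPKM + 1) scale was 0.01 in transgenic and 0.03 in non-transgenic cells. The same medians over all 12156 genes past that minimum were 0.00 and 0.02. Folds, doxycycline over none, ran from 0.764 for Thbs2 to 1.41 for Twist2 in transgenic cells and from 0.895 for Thbs2 to 1.24 for Prrx1 in non-transgenic cells. How closely the data bound a response differs by gene. An approximate 95% interval was taken from the log2 fold and a standard error equal to that fold over the deposited test statistic. For Vim it ran from -0.30 to 0.39 on the log2 scale in transgenic cells and from -0.40 to 0.42 in non-transgenic cells, and for Col1a1 from -0.19 to 0.36 and from -0.47 to 0.28. Of the 30 members that reached 10 FPKM, 29 in transgenic and 28 in non-transgenic cells had an interval within 1 log2 unit of no change. The exceptions were Igfbp7 in both lines (-1.81 to 1.79 and -2.11 to 1.93) and Timp1 in non-transgenic cells (-1.21 to 1.1). These standard errors can differ from those that the deposited p implies. In transgenic cells the p implied 0.6 rather than 0.92 for Igfbp7, and 0.17 rather than 0.14 for Col1a1. Whether the lines responded differently was tested gene by gene, as the difference of the log2 folds over its standard error (normal test, two-sided). Of 44 members tested 0 passed, against 0.142% of 12638 genes, none had an unadjusted p below 0.05 (0 members), and the smallest p was 0.304 for Prrx1 (smallest adjusted p among members 0.999994).

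**Figure D2:**
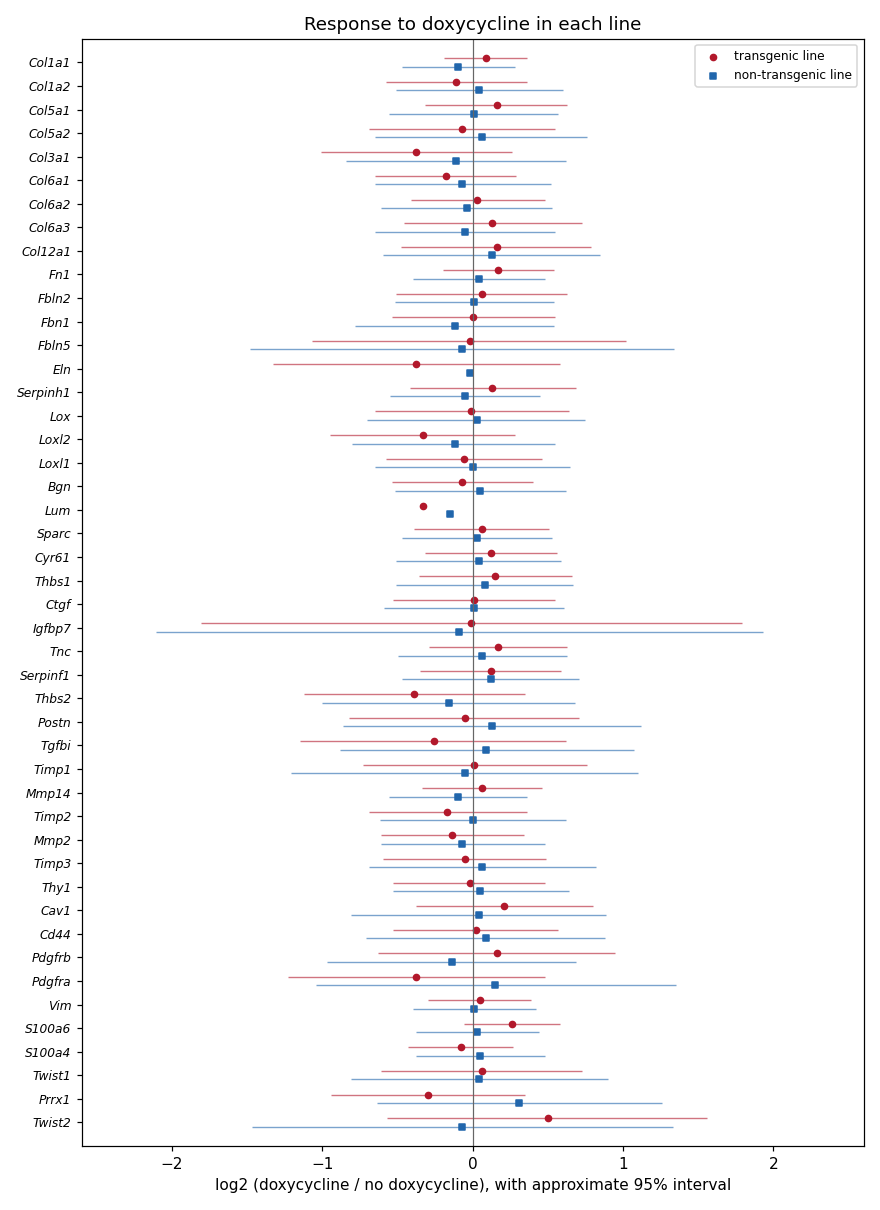
Log2 ratio of the level with doxycycline over the level without it for each gene, in transgenic cells (red circles) and non-transgenic cells (blue squares); bars are approximate 95% intervals from the deposited test statistic, drawn where a test was made. Points lie close to 0 and every drawn interval includes 0; the intervals of Igfbp7 are the widest.

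The lines differed in part of the panel. Serpinh1 and Cyr61 were called higher in transgenic cells, both with and without doxycycline, and these comparisons share no library. From the FPKM and q-values of the authors' deposited table, Serpinh1 was 1.90-fold higher with doxycycline (log2 0.93, SE 0.31, q = 0.00812) and 1.67-fold higher without it (log2 0.74, SE 0.23, q = 0.0200). By the authors' deposited table, Cyr61 was 1.77-fold higher with doxycycline (log2 0.82, SE 0.26, q = 0.0200) and 1.67-fold higher without it (log2 0.74, SE 0.25, q = 0.0462). Each SE comes from the test statistic and each q from the deposited p, and the 2 need not match. With doxycycline 2 of 44 tested members were called higher (4.55%), against 0.857% of 13064 tested genes called higher and 1.52% called in either direction. Without it 2 of 45 were called higher (4.44%), against 0.797% of 13047 genes called higher and 1.37% called in either direction. No member was called lower. The panel and the other lists were chosen with earlier results of these data known. The shares over all genes, here and below, are therefore a setting for the counts and no test of an excess.

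Serpinh1 lies on the minus strand of chromosome 7 (99345376 to 99353239) and Cyr61 on the minus strand of chromosome 3 (145646976 to 145649981), in GENCODE release M21 on the mm10 assembly. Their promoters are printed because these are the called members, and those of the type VI collagen neighbours Col6a1 and Col6a2 because their levels were close between the lines. Each runs from 250 bases before to 50 after the RefSeq start (GRCm38.p6, the mm10 build), 5′ to 3′ along the gene. Capitals mark exact matches, on either strand, to any of 4 motifs. These are the TATA box, read as TATAAA; the motif that NF-Y factors bind, read as CCAAT; that of TEAD factors, read as GGAATG; and that of AP-1, read as TGANTCA.
Serpinh1, chr7:99353190-99353489, minus strand: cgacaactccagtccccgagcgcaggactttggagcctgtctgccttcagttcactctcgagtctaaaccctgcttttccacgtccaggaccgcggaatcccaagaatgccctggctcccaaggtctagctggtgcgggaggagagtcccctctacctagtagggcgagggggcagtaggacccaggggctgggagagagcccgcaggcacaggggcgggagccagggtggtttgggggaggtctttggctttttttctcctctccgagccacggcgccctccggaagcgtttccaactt
Cyr61, chr3:145649936-145650235, minus strand: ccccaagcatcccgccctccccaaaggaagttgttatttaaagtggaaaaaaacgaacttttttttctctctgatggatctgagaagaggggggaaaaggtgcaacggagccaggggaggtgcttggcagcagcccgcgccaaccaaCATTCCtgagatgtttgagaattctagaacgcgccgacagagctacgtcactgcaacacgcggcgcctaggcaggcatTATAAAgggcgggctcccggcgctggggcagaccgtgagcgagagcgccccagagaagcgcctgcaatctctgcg
Col6a1, chr10:76725995-76726294, minus strand: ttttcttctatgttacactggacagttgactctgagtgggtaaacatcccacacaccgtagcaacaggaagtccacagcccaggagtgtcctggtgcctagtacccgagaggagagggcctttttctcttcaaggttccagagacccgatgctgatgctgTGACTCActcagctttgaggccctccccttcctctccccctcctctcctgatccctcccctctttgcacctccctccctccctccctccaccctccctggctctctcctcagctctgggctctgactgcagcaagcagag
Col6a2, chr10:76623355-76623654, minus strand: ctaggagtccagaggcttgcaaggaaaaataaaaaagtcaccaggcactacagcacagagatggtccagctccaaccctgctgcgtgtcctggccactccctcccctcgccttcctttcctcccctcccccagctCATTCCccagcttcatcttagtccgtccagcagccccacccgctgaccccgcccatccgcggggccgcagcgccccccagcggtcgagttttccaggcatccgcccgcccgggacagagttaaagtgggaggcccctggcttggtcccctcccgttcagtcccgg

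The Cyr61 window holds a TATA box whose first base lies 25 bases before the start, and a TEAD match on the opposite strand whose first base lies 103 bases before it. The Serpinh1 window holds none of the 4 motifs. The Col6a2 window holds a TEAD match 115 bases before the start and the Col6a1 window an AP-1 match 90 bases before it. Binding at these matches, and any part of it in the differences between the lines, was not tested. RefSeq promoters were matched for 32 of the 46 members. Of these 8 held a TATA box (25.0%, against 14.2% of 27025 promoters), 12 a CCAAT box (37.5% against 37.9%), 5 a TEAD match (15.6% against 14.6%) and 1 an AP-1 match (3.12% against 7.93%). A further motif, CAGAC, the core that Smad factors bind, was searched on both strands and is not capitalised, and stood in 18 (56.2% against 49.7%).

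Further members had an unadjusted p under 0.05 without passing the adjusted threshold. The authors' deposited table gave 12 of 44 tested members such a p with doxycycline (27.3%, against 7.9% of all genes), 11 of them higher in transgenic cells, and 11 of 45 without it (24.4%, against 6.59%), all 11 higher. There, 10 members had such a p in both comparisons: Serpinh1, Cyr61, Col1a1, Col5a1, Lox, Sparc, Tnc, Thbs1, Timp3 and S100a6. Over all genes, 574 of the 11997 tested in both (4.78%) had such a p in both. The 10 are a collagen chaperone, fibrillar collagens, a cross-linking enzyme, a protease inhibitor, a calcium-binding protein and matricellular genes. By the authors' deposited table, S100a6 was 1.72-fold with doxycycline (SE 0.19 on the log2 scale, q = 0.0704) and 1.46-fold without it (q = 0.418), and Col1a1 1.61-fold (SE 0.17, q = 0.0899) and 1.42-fold (q = 0.327). For Sparc the folds were 1.498 and 1.47, for Lox 1.504 and 1.54, for Timp3 1.47 and 1.59, for Col5a1 1.57 and 1.41, for Tnc 1.51 and 1.4001, and for Thbs1 1.44 and 1.38, each first with and then without doxycycline, and none of these was called. Only 1 comparison gave such a p for Fbn1 (with doxycycline, p = 0.0369), Tgfbi (with doxycycline, p = 0.03565, lower) and Col5a2 (without doxycycline, p = 0.03445) in the authors' deposited table.

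**Figure D3:**
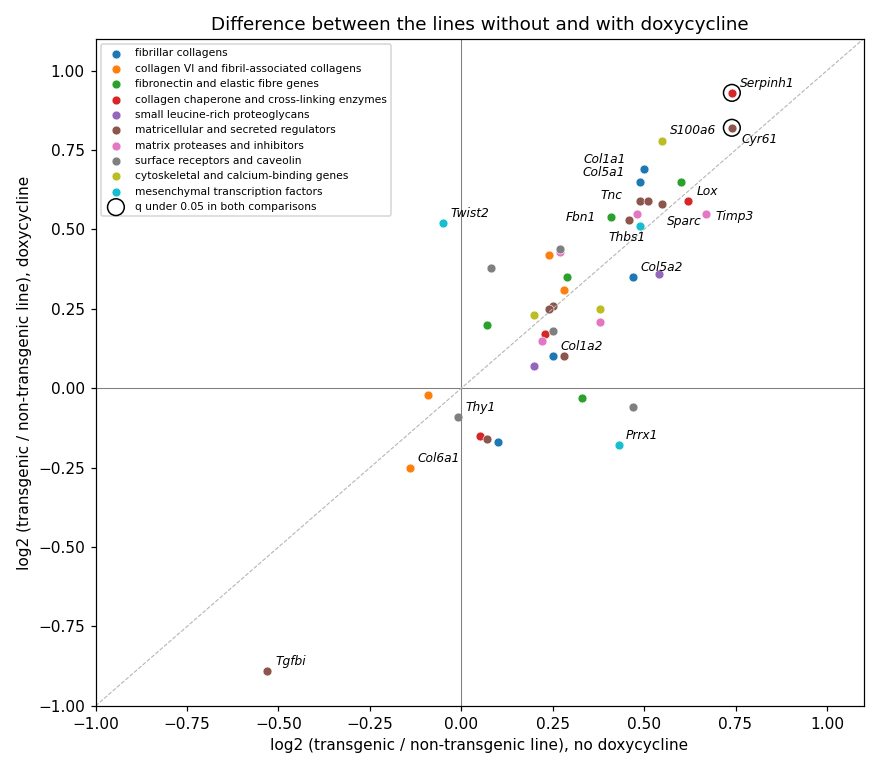
Log2 ratio of transgenic over non-transgenic cells for each gene, without doxycycline (x axis) and with it (y axis), coloured by role; the dashed line marks equal ratios and circled genes had a q under 0.05 in both comparisons. Serpinh1 and Cyr61 lie farthest to the upper right, Tgfbi stands alone at the lower left, and Thy1 and Col6a2 lie near the origin.

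The difference between the lines was not the same for every member. Of the 46 members 35 were higher in transgenic cells in both comparisons, 4 were lower in both (Col6a1, Col6a2, Thy1 and Tgfbi) and 7 had opposite directions in the 2 comparisons (Col3a1, Eln, Loxl2, Thbs2, Pdgfra, Twist2 and Prrx1). Among the 43 members with a mean of at least 1 FPKM, 33 were higher in both (76.7%), against 33.98% of the 12156 genes past that minimum. The median difference on the log2(FPKM + 1) scale was 0.25 with doxycycline and 0.25 without it over these 43 members, and -0.02 and 0.00 over all genes. At least 1.4-fold in both comparisons were 12 members (Col1a1, Col5a1, Fbln5, Serpinh1, Lox, Sparc, Tnc, Cyr61, Igfbp7, Timp3, S100a6 and Twist1). Of the 43 past the minimum 11 were so (25.6%), against 3.87% of all genes. Within 1.2-fold of equality in both were 15 (Col1a2, Col3a1, Col6a1, Col6a2, Fn1, Loxl1, Loxl2, Bgn, Thbs2, Ctgf, Serpinf1, Mmp2, Thy1, Cd44 and Vim). These fold bounds were set after the values were seen.

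By role, the collagen chaperone and cross-linking genes had the highest ratio of summed FPKM, transgenic over non-transgenic, at 1.66 with doxycycline and 1.53 without it. That rank rested on Serpinh1: the other 3 genes of the role summed to ratios of 1.22 and 1.28, also computed after the values were seen. On the log2(FPKM + 1) scale the median of this role was 0.35 with and 0.40 without doxycycline, against 0.42 and 0.37 for the proteases and inhibitors, 0.39 and 0.35 for the matricellular genes and 0.31 and 0.42 for the fibrillar collagens. By summed FPKM the matricellular and secreted regulators followed at 1.45 and 1.403, the fibrillar collagens at 1.42 and 1.35, and the proteases and inhibitors at 1.36 and 1.34. Type VI and fibril-associated collagens were level in sum, at 1.00 and 0.986, with genes on both sides. Col6a3 stood at 1.34 and 1.18 and Col12a1 at 1.24 and 1.21, while Col6a1 stood at 0.839 and 0.909 and Col6a2 at 0.989 and 0.940. Surface receptors with caveolin stood at 1.103 and 1.1002, and fibronectin with the elastic fibre genes at 1.18 and 1.09. The cytoskeletal and calcium-binding genes, the role with the largest sum, stood at 1.35 and 1.28. Mesenchymal transcription factors stood at 1.21 and 1.32, and the small leucine-rich proteoglycans at 1.05 and 1.15. The 10 defining feeder markers gave 1.32 and 1.27, and without Col1a1, the most abundant, 1.04 and 1.12 (a choice made after the values were seen). Their median fold over the 9 with a mean of at least 1 FPKM was 1.07 with doxycycline, where 6 were above 0 on the log2 scale, and 1.18 without it, where 7 were. Of the 9 that were tested 0 were called in either comparison and 1, Col1a1, had an unadjusted p below 0.05 by the authors' deposited table.

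**Figure D4:**
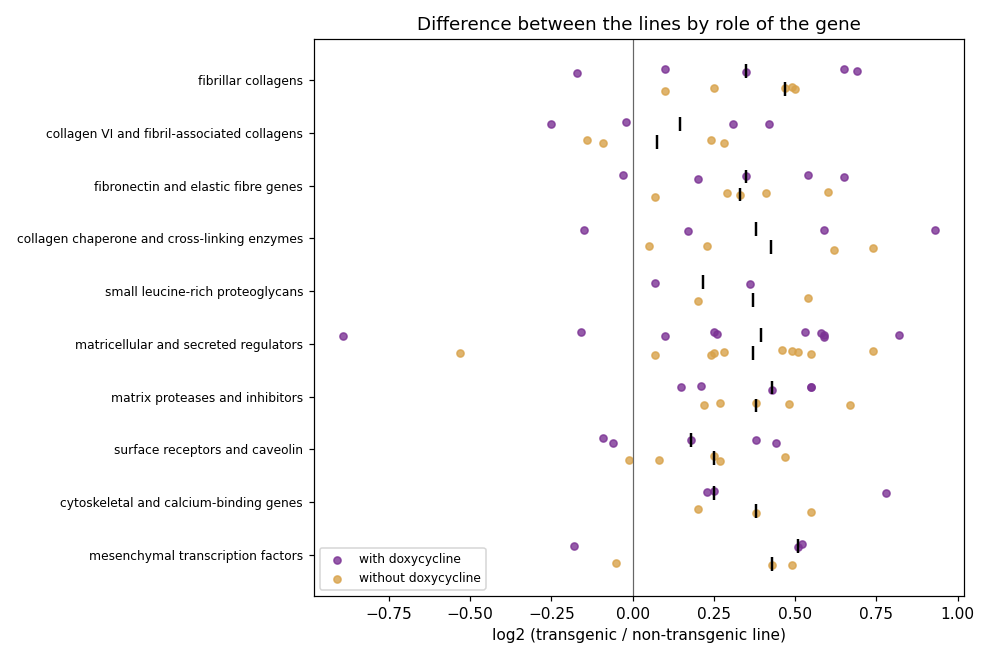
Log2 ratio of transgenic over non-transgenic cells for each gene (points) by role, with doxycycline (purple, upper row of each pair) and without it (yellow, lower row); black ticks are the medians of the genes in a role, and points are spread vertically for legibility. The medians of the type VI and fibril-associated collagens lie nearest to 0, and the cross-linking and matricellular groups hold the points farthest right.

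Neighbouring members did not always share a difference. Col3a1 and Col5a2 lie 24.6 kb apart on chromosome 1, and their ratios between the lines, transgenic over non-transgenic, were 0.889 and 1.27 with doxycycline and 1.07 and 1.38 without it. S100a4 and S100a6 lie 6.8 kb apart on chromosome 3, with ratios of 1.19 and 1.72 with doxycycline and 1.30 and 1.46 without it. Col6a1 and Col6a2, 85.2 kb apart on chromosome 10, had ratios of 0.839 and 0.989 with doxycycline and 0.909 and 0.940 without it. Some levels are uncertain because none of the sources used here gives the strand setting of the counting. In 11 members an exon overlaps an exon of another gene in GENCODE, among them Igfbp7 with the RNA polymerase gene Polr2b and Timp3 with Syn3, and Timp1 lies within Syn1. Polr2b stood at 59.9 and 61.9 FPKM in transgenic cells with and without doxycycline and at 62.3 and 61.0 FPKM in non-transgenic cells, while Syn3 stayed at or under 0.253 FPKM.

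Other genes of matrix assembly were counted in the same way. Of 24 collagen modification and export genes, which hydroxylate, fold and ship procollagen, 24 were tested and 0 called in each of the 4 comparisons. Between the lines with doxycycline 2 had an unadjusted p under 0.05 (Bmp1 and Adamts14), against 7.9% of all tested genes. Their median difference between the lines was 0.05 with doxycycline and 0.05 without it. The prolyl hydroxylase subunit P4hb was at 205 and 228 FPKM in transgenic cells with and without doxycycline, against 198 and 213 FPKM in non-transgenic cells, and the folding isomerase Ppib at 141 and 135 FPKM, against 122 and 126 FPKM. Of 20 integrins and other matrix receptors 18 were tested between the lines with doxycycline and 19 without it, and 0 were called in any of the 4 comparisons. With doxycycline 4 had an unadjusted p below 0.05 (Itga3, Itga5, Itgb5 and Sdc4), against 7.9% of all tested genes. Without it 2 had such a p (Itgb5 and Sdc4), against 6.59%. Itgb1, the common integrin beta chain, was at 104 and 99.0 FPKM, against 85.3 and 80.3 FPKM, and the collagen-binding receptor Ddr1 at 59.4 and 57.3 FPKM, against 52.2 and 59.8 FPKM.

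In 32 further fibroblast matrix genes, 7 of which stayed under 1 FPKM, the median difference between the lines was 0.14 with doxycycline and 0.25 without it. Of 27 tested with doxycycline, 4 had an unadjusted p under 0.05 as higher and 3 as lower in transgenic cells. Of 26 tested without it, 4 had such a p as higher and 3 as lower. Over all tested genes 7.9% with doxycycline and 6.59% without it had such a p in either direction. Called in either direction were 1.52% and 1.37%. The hyaluronan synthase Has2 was called higher without doxycycline, at 10.4 FPKM in transgenic cells against 4.94 FPKM in non-transgenic cells, and was at 9.02 against 5.18 FPKM with it, where it was not called. Sfrp1, a secreted Wnt antagonist, was called lower in both, at 4.77 against 10.1 FPKM with doxycycline and 5.04 against 9.22 FPKM without it. The most abundant of this list, Ecm1 and Fstl1, were not called, at 47.6 against 41.6 FPKM and 27.0 against 29.0 FPKM with doxycycline. Of 12 basement membrane genes 10 were higher in transgenic cells with doxycycline and 9 without it, with median differences of 0.34 and 0.21. With doxycycline 4 had an unadjusted p under 0.05 as higher and 1 as lower, and without it 3 and 1, beside the same 7.9% and 6.59% of all tested genes. The calls went both ways. Lama5 was called higher with doxycycline (68.9 against 39.4 FPKM). Lama1 was called lower with it (2.11 against 5.13 FPKM) and without it (1.54 against 3.48 FPKM). Col18a1, the most abundant of the 12, was at 149 against 151 FPKM with doxycycline and at 136 against 139 FPKM without it. In both lists 0 genes were called for doxycycline in either line, and 1 basement membrane gene had an unadjusted p under 0.05 in non-transgenic cells.

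Markers of other cell types that could add matrix RNA were measured beside the panel. Among contractile genes of smooth muscle and activated fibroblasts, Tagln was called higher in transgenic cells with doxycycline (219 against 106 FPKM) and without it (188 against 101 FPKM), as was Tpm1 (354 against 213 FPKM and 315 against 192 FPKM). Acta2 was called with doxycycline (131 against 68.1 FPKM) and not without it (103 against 65.3 FPKM). Of 11 such genes tested with doxycycline 3 were called, against 0.857% of all tested genes called higher. Of 10 tested without it 2 were called, against 0.797%. The other 8 were called in neither comparison. All 10 with a mean of at least 1 FPKM were higher in transgenic cells in both comparisons. Their median differences were 0.65 with doxycycline and 0.59 without it. With doxycycline 7 had an unadjusted p under 0.05, and without it 6, all higher. Over all tested genes 7.9% and 6.59% had such a p in either direction. The summed level of the 11 contractile genes was 1037 and 921 FPKM in transgenic cells with and without doxycycline, against 620.3 and 587 FPKM in non-transgenic cells. Of 12 primitive streak and epithelial-mesenchymal transition genes 5 were called higher with doxycycline (T, Mixl1, Eomes, Fgf8 and Wnt3) and 4 without it (T, Eomes, Fgf8 and Wnt3). Over all tested genes 0.857% and 0.797% were called higher. Not all of the list rose. Snai2, Zeb1, Zeb2 and Cdh2 had ratios, transgenic over non-transgenic, of 0.755, 0.875, 0.986 and 0.874 with doxycycline. Without it their ratios were 1.01, 0.791, 1.01 and 1.08. Snai1 had ratios of 1.45 and 1.38, and none of these genes was called. The summed level of the 12 genes was 335 and 323 FPKM in transgenic cells with and without doxycycline, against 195 and 195 FPKM in non-transgenic cells. Cdh1 made up most of this sum in every group, so the sum says little of the other genes. Fgf8, a growth factor of the streak, was at 55.1 against 5.81 FPKM with doxycycline and 61.8 against 7.01 FPKM without it. T (brachyury) was at 36.3 against 2.02 FPKM and 22.4 against 1.67 FPKM, and Eomes at 15.2 against 2.67 FPKM and 18.8 against 2.79 FPKM. Wnt3 was at 7.87 against 1.07 FPKM and 7.02 against 1.44 FPKM, and Mixl1 at 3.50 against 0.653 FPKM and 2.08 against 0.799911 FPKM. Cdh1, the epithelial cadherin, was the most abundant of the list and was not called, at 194 against 163 FPKM and 187 against 162 FPKM. The part of these cells in the difference in matrix genes was not tested.

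In the primitive and visceral endoderm, macrophage and endothelial markers 0 genes were called. No separate list of parietal endoderm markers was measured. The 11 primitive and visceral endoderm markers summed to 9.12 and 10.05 FPKM in transgenic cells with and without doxycycline. In non-transgenic cells the sums were 9.44 and 9.84 FPKM. Of the 11, 8 were under 1 FPKM throughout, 1 was listed at 0 in all groups and 0 of 4 tested were called. Foxa2 had an unadjusted p under 0.05 between the lines without doxycycline, at 0.906 against 0.244 FPKM. With doxycycline it was at 0.745 against 0.195 FPKM and was not tested. Dab2 led the endoderm list, at 4.15 and 4.90 FPKM against 4.87 and 4.95 FPKM, before Amn at 2.16 and 2.24 FPKM against 2.04 and 2.53 FPKM. Macrophage markers summed to 63.2 and 64.1 FPKM in transgenic cells, against 69.6 and 66.9 FPKM in non-transgenic cells, with 0 of 7 tested called and 0 at an unadjusted p under 0.05. The lysozyme gene Lyz2 made up most of this, at 44.2 and 44.5 FPKM against 49.3 and 47.5 FPKM, and Cd68 stood at 6.07 and 6.10 FPKM against 7.32 and 6.31 FPKM. Endothelial markers summed to 2.68 and 3.02 FPKM, against 4.64 and 4.39 FPKM, with 0 of 3 tested called and 1, Tek, at an unadjusted p under 0.05 between the lines. Tek was at 1.30 and 1.36 FPKM, against 2.50 and 2.50 FPKM, and Esam at 0.746 and 0.874 FPKM, against 1.02 and 0.717 FPKM. Among 8 ES cell markers Zfp42 and the core factor Nanog were called higher and Sox2 lower in transgenic cells, in both comparisons. Esrrb and Klf4 were also lower in both, each with an unadjusted p under 0.05, but were not called. Esrrb was at 28.6 and 19.7 FPKM in transgenic cells with and without doxycycline, against 43.1 and 32.8 FPKM in non-transgenic cells. Klf4 was at 12.2 and 9.17 FPKM, against 19.9 and 15.1 FPKM. Zfp42 was at 88.3 and 58.8 FPKM in transgenic cells with and without doxycycline, against 20.1 and 18.9 FPKM in non-transgenic cells. Nanog was at 127.5 and 97.6 FPKM, against 68.5 and 57.9 FPKM, and Sox2 at 121 and 105 FPKM, against 196 and 168 FPKM. Dppa5a, the most abundant, was not called, at 1553 and 1269 FPKM, against 1431 and 1218 FPKM.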

How the data were processed

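RNA was sequenced as 75 bp single-end reads from 8 libraries, 2 per group; TopHat2 2.0.8, Cufflinks 2.1.1 and genome build mm10 are named per the submitters' processing notes, with no role. The authors deposited a Cuffdiff-type table of 6 pairwise comparisons with 1 FPKM value per gene and group, a test statistic (a score with no fixed range), a p-value (smallest 5e-05) and a q-value. Benjamini-Hochberg adjustment over all 78127 tests gave the deposited q-value to within 5.21e-07. The sources used here give no library scaling, annotation or strand setting.

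Folds were computed from the deposited FPKM, since the deposited fold column holds spreadsheet errors. Standard errors are the log2 fold over the deposited test statistic. They can be wider or narrower than those that the deposited p implies. Between the lines, Lox without doxycycline had 0.33 rather than 0.22, and Col1a1 with doxycycline 0.17 rather than 0.21. An interval can therefore include 0 where the deposited p is under 0.05. Medians used log2(FPKM + 1), which understates changes of low genes, over genes with a mean of at least 1 FPKM. Named in full were members reaching 10 FPKM or with a deposited p under 0.05. In the other lists, called genes and the 2 most abundant tested genes are named. Some genes there with an unadjusted p under 0.05 were also named, after their values were seen. Others with such a p were only counted or were left out. A planned check of collagen protein sequences was not made, as no protein table was used. The members and lists were chosen with earlier results of these data known. Python 3.11.15, scipy 1.17.1 and statsmodels 0.14.6 were used.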

Additional observations from a re-analysis of the deposited data

How the results depend on the processing

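The authors' table gives 1 value per group, so no library could be left out. No paired analysis was possible because the deposited group values carry no replicate numbers. Counts of called members stayed the same or within 1.5 times under every alternative run but 1. With doxycycline, 2 members were called between the lines at a q under 0.05 and 4 at a q under 0.1 (Col1a1 and S100a6 in addition); 3 were called with p adjusted within that comparison alone (S100a6 in addition). The median difference between the lines with doxycycline was 0.33 over members of at least 5 FPKM, against 0.25 at 1 FPKM. All other medians moved by at most 0.05 with no minimum, 5 FPKM, a pseudocount of 0.1, rescaling or centring. Rescaled to a sum of 1000000 per group, the panel stood at 3287 and 3109 in transgenic cells with and without doxycycline, and at 2481 and 2474 in non-transgenic cells; the defining feeder markers alone summed to 235, 232, 179 and 182 FPKM in that order of groups. Depth per library is unknown, which limits what can be said of members under 1 FPKM (Eln and Lum).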
